A study of Mus musculus with 16 samples.

Results

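The genes described here are 9 genes of injured and fetal-like colonic epithelium: Plaur, Il1rn, Il33, Anxa1, Anxa3, S100a6, Clu, Krt7 and Msln. They were taken by gene name from the deposited expression table, which lists 56268 genes, and each name matched 1 entry. RNA sequencing had been done on colonic epithelial cells of mice in 16 libraries, 4 in each of 4 groups. The groups were Rictor Flox; Villin-Cre mice given 3% dextran sulfate sodium, abbreviated DSS (cKO_DSS), Villin-Cre mice given DSS (WT_DSS), Rictor Flox; Villin-Cre mice on normal water (cKO) and Villin-Cre mice on normal water (WT). All mice therefore carried the Cre transgene, which the villin promoter drives in intestinal epithelium, and the labels give no age, sex or length of DSS treatment. Rictor is the subunit that defines mTOR complex 2, and DSS is a sulfated sugar polymer that damages the gut lining and causes colitis.

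When the gut lining is wounded, surviving epithelial cells spread over the gap and for a time switch on genes that are otherwise typical of the fetal intestine. In mouse models this state has been tied to the co-activator YAP, which acts through TEAD transcription factors, and it has been described in DSS colitis. Its genes code for surface receptors and secreted modulators of inflammation, for calcium-dependent membrane proteins and for keratins of simple epithelia.

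Recovered reads came to 13911823 to 16414914 per library. The labelled cell type was checked against its markers: all 10 genes of an epithelial list, among them Epcam, Vil1 and Cdx2, were expressed, with summed levels of 11525 to 13059 FPKM in cKO_DSS, 9317 to 10767 FPKM in WT_DSS, 9172 to 13207 FPKM in cKO and 8088 to 10706 FPKM in WT (FPKM are fragment counts divided by gene length and sequencing depth). Rictor itself was measured at 2.96, 2.78, 1.92 and 2.36 FPKM in cKO_DSS and at 3.85, 3.69, 2.82 and 4.16 FPKM in WT_DSS. On water it was 2.75, 2.33, 2.57 and 2.22 FPKM in cKO and 3.14, 3.08, 2.80 and 2.17 FPKM in WT. Neither difference passed the test (adjusted p = 0.0761 after DSS and 0.582 on water), though the one after DSS did without WT_DSS 3 (-0.49, adjusted p = 0.0370) or without cKO_DSS 1 (-0.46, adjusted p = 0.0431). The values cover the whole gene, so transcripts without the floxed exons are counted too. Libraries cKO_DSS 3 and 4 stood apart on the second principal component, at -33.9 and -32.2. Reads of 4 Y-linked genes came to 2681 to 4533 in the DSS libraries and 0 to 1856 in the water libraries. Reads of Xist, which female cells express, came to 0 to 7 in the DSS libraries apart from 5275 in WT_DSS 2, and to 10022 to 25600 in the water libraries. Neither measure overlapped between DSS and water, so treatment and sex-linked expression cannot be told apart by group. Some libraries held reads of both kinds. Xist and Y-linked reads came to 12362 and 792 in WT 1, 10162 and 1377 in WT 2, and 10022 and 648 in WT 4. They came to 21753 and 635 in cKO 1, 12235 and 1856 in cKO 2, and 5275 and 2681 in WT_DSS 2. WT 3, cKO 3 and cKO 4 had 0 Y-linked reads. Whether a library holds RNA of several mice was not tested. Whether each library is a different animal is not stated in the labels, so p-values describe only the spread between these samples, which may be technical.

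Plaur, Il1rn and Clu rose in cKO_DSS against WT_DSS, by 0.93, 0.65 and 0.64 on the log2(FPKM + 1) scale, which understates the changes of low genes. With DSS in control mice Plaur, Il1rn, Anxa1 and Msln rose, and with DSS in cKO mice Plaur, Il1rn, Krt7 and Clu rose. No gene of the set fell in any of these comparisons, and none was called between cKO and WT on water. A gene was called at a limma adjusted p under 0.05 (Benjamini-Hochberg over 13255 genes). Of the 9 genes, 8 had at least 1 FPKM in at least 4 libraries and were tested; each of these 8 also reached 1 FPKM in at least 5 of the 8 water libraries. Il33 stayed below and was tested on its own. All 3 genotype calls after DSS were lost without cKO_DSS 3 and 4, without WT_DSS 2 and when only the 8 samples compared were fitted. In these fits 0.249%, 0.588% and 0.724% of all genes were called, against 3.7% as reported.

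**Figure D1:**
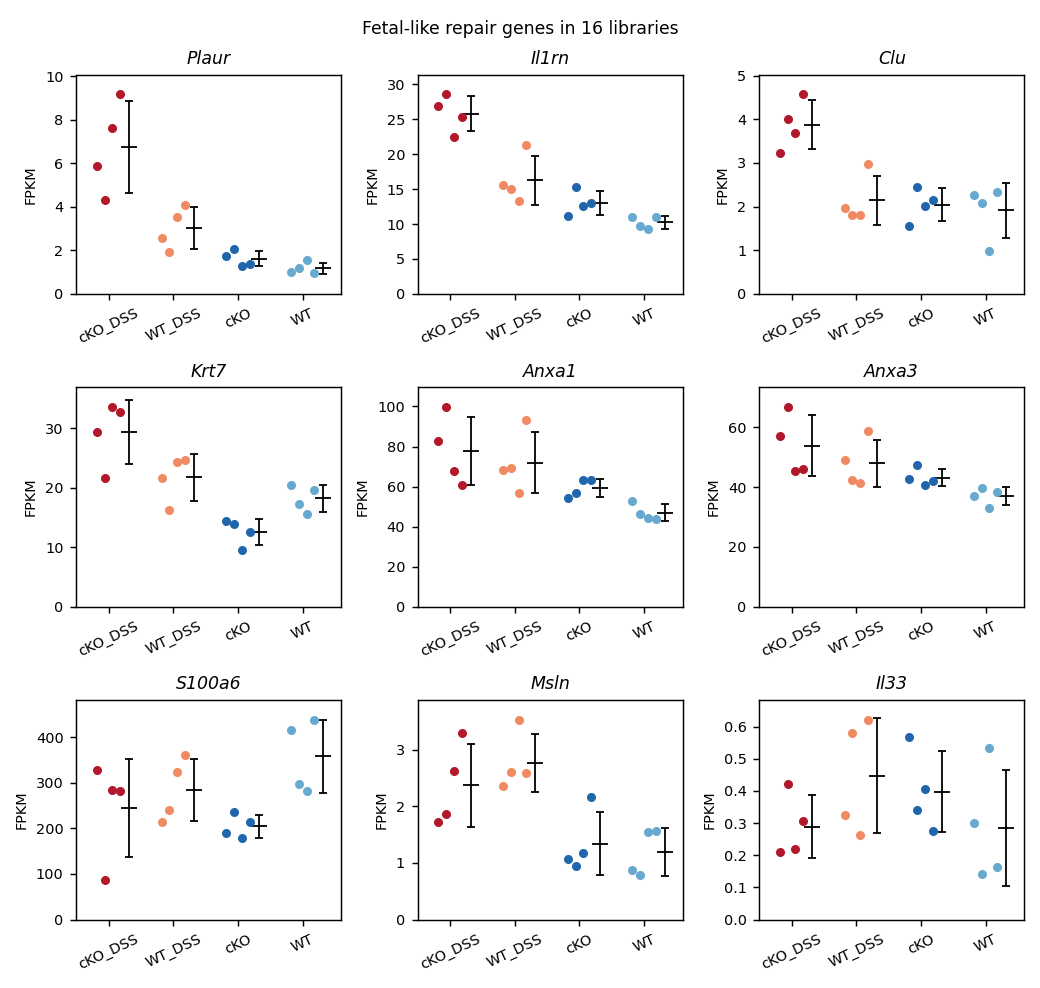
FPKM of each of the 9 genes in every library, by group in the order cKO_DSS, WT_DSS, cKO and WT; points are libraries and bars mark the mean with its SD (n = 4 each). Plaur lay between 4.33 and 9.16 FPKM in cKO_DSS, above all libraries of the other groups, whereas S100a6 in cKO_DSS spread from 86.7 to 327 FPKM.

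The share of genes called higher sets the scale for these counts. After DSS 3 of 8 tested genes were higher in cKO_DSS, where 2.03% of all 13255 genes were, and 0 were lower, where 1.67% were, and 3 of 8 did not overlap between the groups in that direction, where 5.12% of all genes did not. With DSS in control 4 of 8 rose against 15.0% of all genes, and 0 fell against 13.5%. In cKO 4 of 8 rose against 8.07% of all genes, and 0 fell against 6.64%. At an unadjusted p under 0.05 none of the 8 was lower in these 3 comparisons either, and limma voom called 0 lower. The groups did not overlap for 5 of 8 genes higher in WT_DSS than in WT (15.5% of all genes) and for 4 of 8 higher in cKO_DSS than in cKO (10.1%). On water 0 of 8 were called by limma, where 0.0905% of all genes were. Of the 8, 4 had an unadjusted p under 0.05, a level for which no share of all genes was counted. On the recovered reads limma voom called 0 as well, where it called 0.174% of all genes. Between the water groups, 3 genes lay wholly higher in cKO (7.85% of all genes) and 2 wholly lower (7.65%). The median log2 difference over the 8 genes was 0.29 after DSS, 0.15 on water, 0.47 with DSS in control and 0.61 with DSS in cKO, and the corresponding medians over all genes lay between -0.01 and 0.01. The comparisons share groups, so they are not independent of each other.

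**Figure D2:**
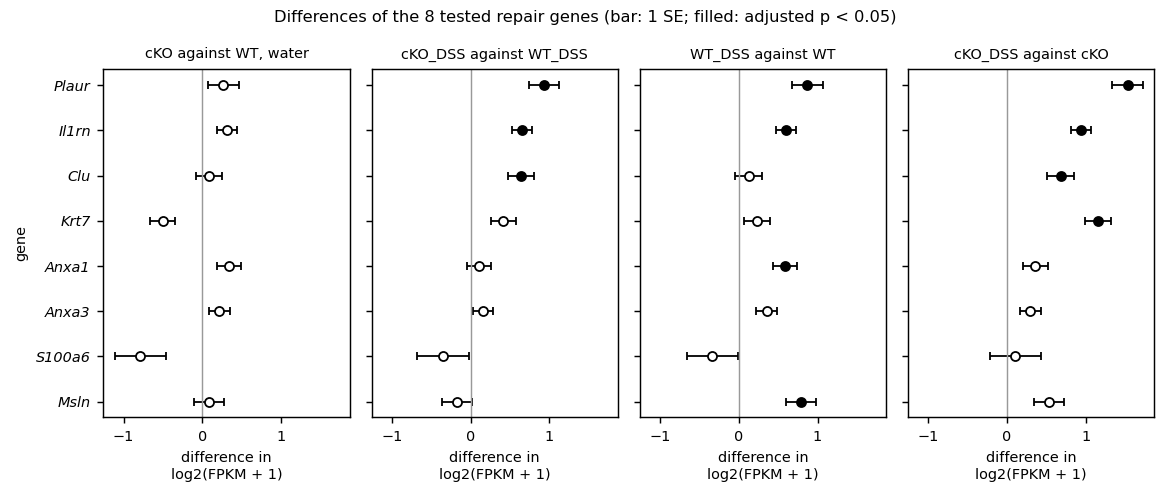
Log2 differences of the 8 tested genes, as estimate and standard error from limma on log2(FPKM + 1), with panels from left to right for genotype without DSS, genotype after it, and DSS in control and in cKO; filled points passed an adjusted p of 0.05. All 11 filled points lie above 0, with the highest at 1.53 for Plaur with DSS in cKO.

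Plaur codes for the urokinase receptor uPAR, which is anchored in the outer membrane and focuses plasmin formation at the cell surface. It lies on mm10 at chr7:24462484-24475968 on the plus strand. Its level was 5.88, 4.33, 7.63 and 9.16 FPKM in cKO_DSS and 2.59, 1.94, 3.52 and 4.08 FPKM in WT_DSS. On water it was 1.73, 2.08, 1.29 and 1.37 FPKM in cKO and 0.997, 1.19, 1.53 and 0.972 FPKM in WT. The cKO_DSS libraries were thus above all others, WT_DSS lay above WT without overlap, and the water groups overlapped. As means this was 6.75 ± 2.10 FPKM in cKO_DSS, 3.03 ± 0.95 FPKM in WT_DSS, 1.62 ± 0.36 FPKM in cKO and 1.17 ± 0.26 FPKM in WT (SD, n = 4 each).

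The genotype difference of Plaur after DSS was 0.93 ± 0.20 SE (adjusted p = 0.0199; ratio of mean FPKM 2.23). With DSS it rose by 0.87 ± 0.20 SE in control (adjusted p = 0.00663) and by 1.53 ± 0.20 SE in cKO (adjusted p = 0.000262), and on water the genotype difference was 0.27 ± 0.20 SE (adjusted p = 0.466). The test of whether the DSS responses differ gave 0.67 ± 0.28 SE and did not pass (adjusted p = 0.175). The values rest on 177 to 380 reads per library in cKO_DSS and on 38 to 60 in WT. The genotype call after DSS ended without cKO_DSS 3 and 4, the libraries that stood apart, where the difference was 0.62 (adjusted p = 0.231), and the adjusted p was 0.0688 without cKO_DSS 3 alone, 0.0680 without cKO_DSS 4, 0.0637 without WT_DSS 1 and 0.0802 without WT_DSS 2. It was also lost in the 8 samples compared (0.0953), without WT 4 and WT_DSS 2 (0.0789) and with no filter (0.0540). With the Y-linked level as a covariate the difference with DSS in control was 0.83 and not called (adjusted p = 0.0653), while the call in cKO held in every alternative run.

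Il1rn codes for the interleukin-1 receptor antagonist, a secreted protein that occupies the IL-1 receptor without signalling (mm10 chr2:24336853-24351494, plus strand). It stood at 26.9, 28.6, 22.5 and 25.4 FPKM in cKO_DSS and at 15.6, 15.0, 13.2 and 21.4 FPKM in WT_DSS. The water libraries held 11.2, 15.3, 12.6 and 13.0 FPKM in cKO and 10.96, 9.65, 9.28 and 11.1 FPKM in WT. No pair of groups that the design compares overlapped, although on water the lowest cKO and the highest WT library were close. The genotype difference was 0.65 ± 0.13 SE after DSS (adjusted p = 0.0161) and 0.31 ± 0.13 SE on water, where it did not pass (adjusted p = 0.229). With DSS Il1rn rose by 0.60 ± 0.13 SE in control (adjusted p = 0.00488) and by 0.94 ± 0.13 SE in cKO (adjusted p = 0.000366). These responses were not shown to differ (0.34 ± 0.18 SE, adjusted p = 0.266).

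The call of Il1rn after DSS kept its size but not its threshold without WT_DSS 2 (adjusted p = 0.0644), without WT 4 and WT_DSS 2 (0.0663), in the 8 samples compared (0.0760) and without cKO_DSS 3 and 4 (0.75, adjusted p = 0.0772). With the Y-linked covariate the difference with DSS in control was 0.49 and not called (adjusted p = 0.0741), and after every library had been corrected for GC content it was 0.35 and still called. In bulk RNA, more cells of a type and more RNA per cell cannot be told apart.

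Because Plaur and Il1rn were called in the same 3 comparisons, the 250 bases before their starts are shown, from RefSeq on GRCm38.p6. The Plaur stretch is chr7:24462233-24462482 and the Il1rn stretch, before its first of 3 listed starts, chr2:24336610-24336859, both on the plus strand and printed 5′ to 3′. Capitals mark the letters of the AP-1 motif TGANTCA, the recognition sequence of Fos and Jun dimers.
Plaur: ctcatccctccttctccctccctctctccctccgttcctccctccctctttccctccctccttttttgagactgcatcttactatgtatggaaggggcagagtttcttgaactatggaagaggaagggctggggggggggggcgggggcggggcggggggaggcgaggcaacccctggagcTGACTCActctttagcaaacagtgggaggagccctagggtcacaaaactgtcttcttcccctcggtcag
Il1rn: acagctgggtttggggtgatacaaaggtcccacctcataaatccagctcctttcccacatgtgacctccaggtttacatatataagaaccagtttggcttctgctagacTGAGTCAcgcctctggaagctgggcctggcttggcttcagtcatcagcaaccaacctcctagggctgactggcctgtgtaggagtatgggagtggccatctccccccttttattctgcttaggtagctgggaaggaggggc

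The AP-1 letters begin at -69 in Plaur and at -141 in Il1rn, counted back from the start. RefSeq promoters were found for 6 of the 9 genes, 9 stretches in all, and these 2 were the only ones with the AP-1 letters, which 6.75% of 32851 mouse promoter stretches of that length hold. The TEAD letters GGAATG, or CATTCC on the other strand, occurred in 4 of the 9 stretches, belonging to Anxa1, Il1rn at the third of its starts and Il33 at both of its starts, against 12.6% of all stretches. No letters of either motif were found in S100a6 and Krt7. The motifs do not overlap each other, and a match is a run of letters, not a measured binding site.

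Il33 codes for a nuclear alarmin of the IL-1 family that damaged cells release (mm10 chr19:29925114-29960718, plus strand). Its level was 0.210, 0.421, 0.220 and 0.306 FPKM in cKO_DSS and 0.325, 0.579, 0.264 and 0.620 FPKM in WT_DSS. On water it was 0.567, 0.341, 0.408 and 0.274 FPKM in cKO and 0.301, 0.142, 0.533 and 0.162 FPKM in WT. All groups overlapped, on 7 to 26 reads per library. Exact two-sided permutation tests, whose smallest possible p is 0.0286, gave p = 0.2 for genotype after DSS, 0.314 on water, 0.2 for DSS in control and 0.257 for DSS in cKO, with 0.314 after adjustment over these 4 tests. A change of Il33 was not detectable at this depth.

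The partners of these proteins were mostly scarce. Plau, which codes for urokinase, the ligand of uPAR, had 0 to 7 reads per library, and Il1rl1, the receptor of IL-33, 0 to 29. Il1a, an IL-1 receptor agonist, had 1 to 12 reads and Il1r2, the decoy receptor, 0 to 14. Il1b, the other agonist, averaged 1.41 ± 0.67 FPKM in cKO_DSS, 1.07 ± 0.60 FPKM in WT_DSS, 0.247 ± 0.19 FPKM in cKO and 0.303 ± 0.16 FPKM in WT. It reached the filter on low values through the DSS libraries alone, so no test of its difference with DSS is given. Il1r1, the signalling receptor that Il1rn blocks, averaged 3.99 ± 0.55 FPKM in cKO_DSS against 2.79 ± 0.35 FPKM in cKO, and 3.76 ± 0.52 FPKM in WT_DSS against 2.69 ± 0.39 FPKM in WT. Its rises were 0.39 ± 0.11 SE in cKO (adjusted p = 0.0279) and 0.37 ± 0.11 SE in control (adjusted p = 0.0240).

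Neutrophils and macrophages also express Plaur, Il1rn and Il1b. Of a list of 10 neutrophil genes, S100a8 had 6 reads and S100a9 3 reads in all 16 libraries together, Trem1 had 0, and the list without Ly6g held at most 10 reads in any library. With Ly6g it summed to 39.9 to 76.9 FPKM in cKO_DSS, 31.8 to 39.4 FPKM in WT_DSS, 38.4 to 63.3 FPKM in cKO and 46.9 to 58.6 FPKM in WT. The 10 monocyte and macrophage genes summed to 70.3 to 103 FPKM in cKO_DSS, 65.8 to 79.7 FPKM in WT_DSS, 39.7 to 58.6 FPKM in cKO and 35.6 to 49.0 FPKM in WT, most of it Cd14. Lyz2 of that list averaged 4.81 FPKM in cKO_DSS, 4.91 FPKM in WT_DSS, 2.14 FPKM in cKO and 1.67 FPKM in WT. Cd68 was lower with DSS, at 1.42 FPKM in cKO_DSS, 1.13 FPKM in WT_DSS, 2.23 FPKM in cKO and 2.02 FPKM in WT. The part of neutrophils and macrophages in the rises of Plaur and Il1rn with DSS was not tested.

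Clu codes for clusterin, a secreted chaperone that marks revival stem cells in the injured mouse intestine (mm10 chr14:65968483-65981547, plus strand). It stood at 3.24, 4.001, 3.69 and 4.57 FPKM in cKO_DSS and at 1.97, 1.80, 1.81 and 2.98 FPKM in WT_DSS. On water its level was 1.56, 2.46, 2.01 and 2.16 FPKM in cKO and 2.26, 2.08, 0.973 and 2.34 FPKM in WT. The cKO_DSS libraries lay above every other library, and the remaining 3 groups overlapped. Clu was 0.64 ± 0.17 SE higher in cKO_DSS than in WT_DSS (adjusted p = 0.0468) and 0.68 ± 0.17 SE higher in cKO_DSS than in cKO (adjusted p = 0.0141). In control the DSS difference was 0.12 ± 0.17 SE (adjusted p = 0.605), and the test of the difference between the responses did not pass (0.56 ± 0.24 SE, adjusted p = 0.184). The genotype call sits at the threshold and ended in 18 of 26 alternatives, with adjusted p up to 0.299. Among these were fits without WT 1 or 2, without any one cKO library, without WT_DSS 1, 2 or 3, and without cKO_DSS 2, 3 or 4. The estimate kept its sign. Fits without a water library, with no filter or on the 8 samples compared could not change it from 0.64. The rise in cKO was not called with the Y-linked covariate (0.39, adjusted p = 0.411) or without cKO_DSS 3 and 4 (0.60, adjusted p = 0.0776).

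Krt7 codes for keratin 7, a type II keratin of simple and ductal epithelia (mm10 chr15:101411043-101430313, plus strand). Its level was 29.4, 21.7, 33.5 and 32.8 FPKM in cKO_DSS and 21.6, 16.3, 24.4 and 24.7 FPKM in WT_DSS. On water it was 14.3, 13.9, 9.57 and 12.6 FPKM in cKO and 20.4, 17.2, 15.5 and 19.6 FPKM in WT. Thus cKO lay wholly below WT on water, while after DSS cKO_DSS and WT_DSS overlapped and the mean of cKO_DSS was the higher one. With DSS Krt7 rose by 1.15 ± 0.16 SE in cKO (adjusted p = 0.000436), a call that every alternative kept, and the difference in control was 0.23 ± 0.16 SE (adjusted p = 0.292). The genotype difference was 0.42 ± 0.16 SE after DSS (adjusted p = 0.16) and -0.51 ± 0.16 SE on water (adjusted p = 0.164). The change of the DSS response with genotype was 0.92 ± 0.23 SE (adjusted p = 0.0746), the lowest adjusted p of the 8 genes in that test. It passed without cKO_DSS 2 (1.05, adjusted p = 0.0188), a fit that called 9.35% of all genes for the interaction, against 0.151% as reported. An antisense gene, Gm671, overlaps Krt7 and had 259 reads in all against 34733 of Krt7.

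**Figure D3:**
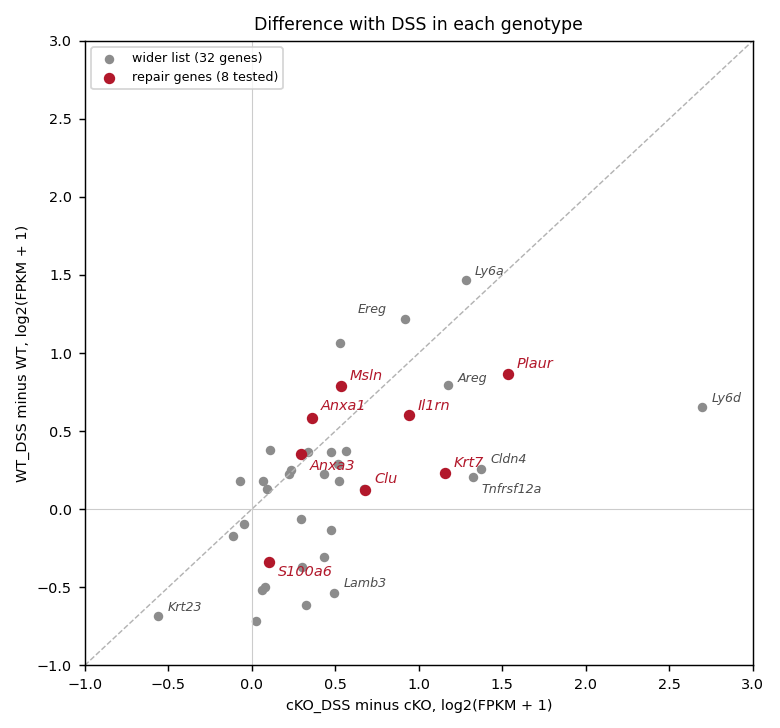
Log2 difference with DSS of each tested gene in cKO (horizontal axis, cKO_DSS minus cKO) and in control (vertical axis, WT_DSS minus WT), in red, with the 32 tested genes of a wider repair list in grey; the dashed line marks equal differences. Among the red points Krt7 lies farthest from the line, at 1.15 and 0.23, and no gene passed the test of the difference between the responses.

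For the interaction limma called 0 of 8 genes, where it called 0.151% of all genes, and limma voom called 0, where it called 0.317%. Of the 8, 3 had an unadjusted p under 0.05, a level for which no share of all genes was counted. Among the keratins that pair with Krt7 or accompany it in simple epithelium, Krt18, a type I keratin, was higher in cKO_DSS at 520.3 ± 72.3 FPKM against 320.7 ± 50.3 FPKM in WT_DSS (0.70 ± 0.13 SE, adjusted p = 0.0108) and against 329.8 ± 18.8 FPKM in cKO (0.65 ± 0.13 SE, adjusted p = 0.0038). Krt19 fell with DSS in control (-0.61, adjusted p = 0.0340). Krt8 and Krt20 were not called in any comparison. Of markers of stratified squamous epithelium, which the anal canal could contribute, Krt5 and Sprr3 had 0 reads, Trp63 had 2 reads in all libraries and none of the 10 listed genes passed the filter. Krt14 had 276 reads, Dsg3 187 and Krt13 151. Krt14 averaged 0.660 FPKM in cKO_DSS, 0.889 FPKM in WT_DSS, 0.356 FPKM in cKO and 0.704 FPKM in WT. Krt13 averaged 0.788 FPKM in cKO_DSS, 0.278 FPKM in WT_DSS, 0.132 FPKM in cKO and 0.177 FPKM in WT. The listed genes thus did not share a pattern: Krt13 and Dsg3 had their highest mean in cKO_DSS, Krt14 in WT_DSS and Lgals7 in WT. The list summed to 1.09 to 2.63 FPKM in cKO_DSS, 0.850 to 1.87 FPKM in WT_DSS, 0.374 to 0.885 FPKM in cKO and 0.780 to 2.19 FPKM in WT. Its part in the keratin values was not tested.

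Anxa1 codes for annexin A1, a calcium-dependent phospholipid-binding protein with pro-resolving signals through formyl peptide receptors (mm10 chr19:20373428-20390944, minus strand). It was one of the more abundant genes of the set, at 82.7, 99.6, 68.0 and 60.8 FPKM in cKO_DSS and 68.4, 69.3, 56.6 and 93.1 FPKM in WT_DSS. On water the libraries held 54.5, 56.8, 63.2 and 63.1 FPKM in cKO and 53.0, 46.4, 44.2 and 44.0 FPKM in WT. WT was the lowest group throughout, all 4 cKO libraries lay above it, and the DSS groups overlapped. With DSS Anxa1 rose by 0.59 ± 0.15 SE in control (adjusted p = 0.0131), and in cKO the difference was 0.36 ± 0.15 SE (adjusted p = 0.132). Between genotypes it was 0.11 ± 0.15 SE after DSS (adjusted p = 0.736) and 0.34 ± 0.15 SE on water (adjusted p = 0.266). The call in control ended with the Y-linked covariate (0.59, adjusted p = 0.0833) and without WT 4 and WT_DSS 2 (0.57, adjusted p = 0.0675), with estimates close to that of all libraries. Without cKO_DSS 3 and 4 the difference in cKO passed (0.61, adjusted p = 0.0266), as it did after a GC correction (0.36, adjusted p = 0.0391). The receptors had almost no reads, with 0 of Fpr1 and at most 3 of Fpr2 in any library.

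Anxa3 codes for another annexin (mm10 chr5:96793339-96845966, plus strand). Its level was 57.2, 66.7, 45.6 and 45.9 FPKM in cKO_DSS and 49.2, 42.5, 41.3 and 58.7 FPKM in WT_DSS. On water it was 42.8, 47.3, 40.7 and 42.0 FPKM in cKO and 37.1, 39.7, 33.0 and 38.4 FPKM in WT. WT again lay below cKO and below WT_DSS without overlap. No difference passed: DSS gave 0.35 ± 0.13 SE in control (adjusted p = 0.0531) and 0.30 ± 0.13 SE in cKO (adjusted p = 0.144), and genotype gave 0.16 ± 0.13 SE after DSS (adjusted p = 0.522) and 0.22 ± 0.13 SE on water (adjusted p = 0.371). The difference in control passed without WT_DSS 3 (0.42, adjusted p = 0.0335) or without cKO_DSS 2, 3 or 4, and that in cKO passed without cKO_DSS 3 and 4 together (0.51, adjusted p = 0.0266).

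S100a6 codes for calcyclin, a small calcium sensor (mm10 chr3:90612882-90624181, plus strand). It was the most abundant gene of the set per length, at 327, 86.7, 284 and 282 FPKM in cKO_DSS and 215, 240, 322 and 360 FPKM in WT_DSS. On water it stood at 189, 236, 178 and 214 FPKM in cKO and 415, 297, 282 and 437 FPKM in WT. All cKO libraries lay below all WT libraries, but the fit did not pass (-0.79 ± 0.33 SE, adjusted p = 0.235). The DSS groups overlapped, and cKO_DSS 2 was the lowest of all 16 libraries. After DSS the genotype difference was -0.35 ± 0.33 SE (adjusted p = 0.592), and without cKO_DSS 2 it was 0.094. The DSS differences were 0.10 ± 0.33 SE in cKO and -0.34 ± 0.33 SE in control, neither of which passed.

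Msln codes for mesothelin, a membrane-anchored glycoprotein best known from mesothelium (mm10 chr17:25748613-25754378, minus strand). It stood at 1.72, 1.86, 2.63 and 3.29 FPKM in cKO_DSS and at 2.35, 2.61, 3.52 and 2.58 FPKM in WT_DSS. The water libraries held 1.07, 0.941, 1.18 and 2.16 FPKM in cKO and 0.873, 0.784, 1.55 and 1.57 FPKM in WT. All WT_DSS libraries lay above all WT libraries, whereas the cKO_DSS and cKO ranges overlapped because of cKO 4. With DSS Msln rose by 0.79 ± 0.19 SE in control (adjusted p = 0.00839), a call that every alternative kept, at 1.24 with limma voom on recovered reads. In cKO the difference was 0.53 ± 0.19 SE (adjusted p = 0.0695; 0.0276 without cKO 4 and 0.0317 after a GC correction). Genotype gave -0.17 ± 0.19 SE after DSS (adjusted p = 0.646) and 0.08 ± 0.19 SE on water (adjusted p = 0.839).

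The summed mesothelial markers were, like Msln, at their highest in the DSS libraries. The 7 genes of that list summed to 5.91 to 7.91 FPKM in cKO_DSS, 6.35 to 9.72 FPKM in WT_DSS, 3.14 to 3.84 FPKM in cKO and 2.05 to 3.41 FPKM in WT. Of its 4 tested genes 3 reached the filter only with the DSS libraries, so no count of rises is given, and no listed gene had 0 reads throughout. Upk3b, which reached it on water too, averaged 1.90 FPKM in cKO_DSS, 2.50 FPKM in WT_DSS, 1.05 FPKM in cKO and 0.968 FPKM in WT. Fibroblast and matrix genes summed to 9.50 to 11.5 FPKM in cKO_DSS, 14.0 to 16.6 FPKM in WT_DSS, 4.93 to 7.42 FPKM in cKO and 4.67 to 6.05 FPKM in WT. The part of such cells in the rise of Msln was not tested. Muc16, the binding partner of mesothelin, had 11 to 66 reads per library and did not reach the filter.

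**Figure D4:**
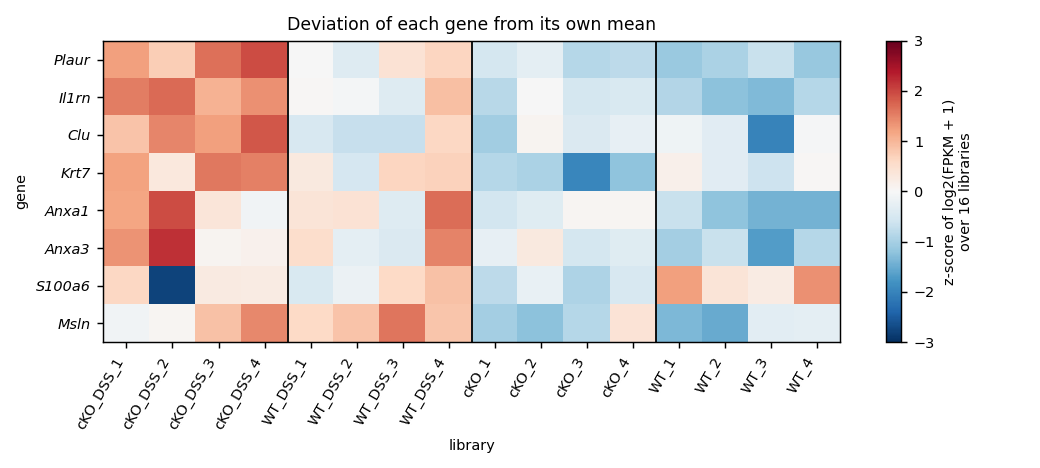
Level of each of the 8 tested genes in the 16 libraries as z-scores of log2(FPKM + 1), by group in the order cKO_DSS, WT_DSS, cKO and WT. Plaur is highest in cKO_DSS 4 and 3, whereas Anxa1 and Anxa3 are highest in cKO_DSS 2.

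The genes did not rank the cKO_DSS libraries alike. Plaur was highest in cKO_DSS 4 and cKO_DSS 3, Anxa1 and Anxa3 were highest in cKO_DSS 2, and S100a6 was lowest there. In the control mice WT_DSS 4 had the highest level of its group for every gene of the set but Msln, which was highest in WT_DSS 3. For Krt7 the margin was small, at 24.7 FPKM against 24.4 FPKM in WT_DSS 3. Taken over genes, which are no independent replicates, the Spearman rho between a library's deviations from the gene means and GC content was -0.255, -0.375, 0.399 and 0.388 in cKO_DSS 1 to 4 and -0.423, -0.483, 0.0178 and -0.403 in WT_DSS 1 to 4. The GC content of the longest transcript was 43.6% for Anxa1, 47.3% for Anxa3, 41.6% for Il1rn, 53.0% for Plaur and 55.6% for Clu. After a GC correction of every library the genotype calls of Plaur and Il1rn after DSS held, and Clu gave 0.55 (adjusted p = 0.093).

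**Figure D5:**
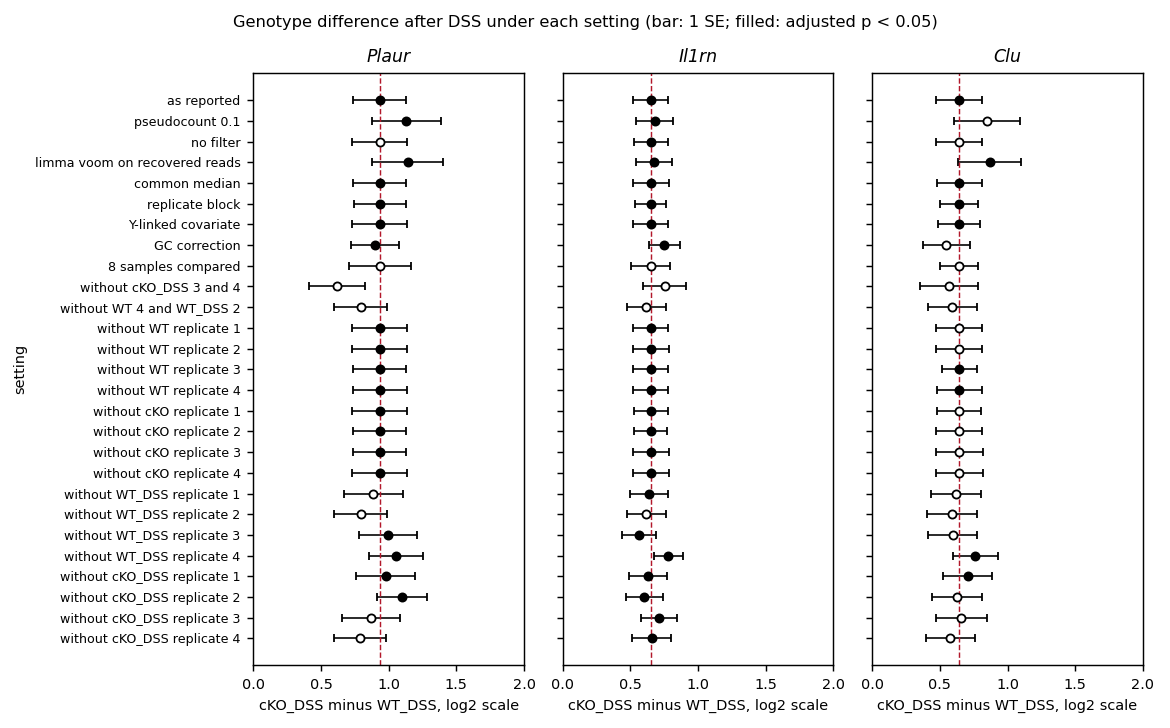
Genotype difference after DSS (cKO_DSS minus WT_DSS, log2) of Plaur, Il1rn and Clu under the fit reported and each alternative, with 1 SE; filled points passed an adjusted p of 0.05. The estimates of Plaur run from 0.62 to 1.14 and those of Il1rn from 0.56 to 0.78, all above 0, while whether a point is filled varies with the libraries included.

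A wider list of 44 genes of injured, fetal-like and YAP-linked epithelium, none of them among the 9, was counted for comparison. Of these, 32 passed the filter, all but Ly6d, Ereg and Tead4 in the water libraries alone. The list was chosen with earlier results of these data known. Its shares beside those of all genes are therefore a description and no test. After DSS 9 of 32 were higher in cKO_DSS, against 2.03% of all genes, and 0 lower, against 1.67%, with a median log2 difference of 0.43. They included the tight junction gene Cldn4, at 58.6 ± 12.5 FPKM in cKO_DSS against 17.0 ± 1.85 FPKM in WT_DSS (1.71 ± 0.17 SE), and Ly6d of the LY6 family, at 12.3 ± 4.78 FPKM against 1.498 ± 0.97 FPKM (2.42 ± 0.28 SE). Ly6d is counted among the 9, although it reached the filter only with the DSS libraries. Hbegf, an EGF receptor ligand, was 0.91 ± 0.19 SE higher (adjusted p = 0.0200) and the annexin Anxa2 0.44 ± 0.10 SE higher (adjusted p = 0.0229). That count was 2 without cKO_DSS 3 and 4, 3 without either of them, 2 without WT_DSS 1 or WT_DSS 2, 5 without WT_DSS 4, 3 in the 8 samples compared and 4 with no filter. The share of all genes called in either direction, 3.7% as reported, moved as well. It was 0.249% without cKO_DSS 3 and 4, 0.807% without cKO_DSS 3 and 1.24% without cKO_DSS 4. Without WT_DSS 1, 2 or 4 it was 1.13%, 0.588% and 1.87%. In the 8 samples compared it was 0.724%, and with no filter 0.687%. On water 0 of 32 were called by limma and 0 by limma voom, which called 0.0905% and 0.174% of all genes. Of the 32, 8 had an unadjusted p under 0.05, a level for which no share of all genes was counted. The smallest p on water belonged to Cldn4 (0.60 ± 0.17 SE, adjusted p = 0.133). Cldn4 averaged 22.1 ± 5.30 FPKM in cKO and 14.1 ± 2.27 FPKM in WT, and these groups did not overlap. Next came the integrin subunits Itgb6 (0.33 ± 0.10 SE, adjusted p = 0.141) and Itga2 (0.33 ± 0.10 SE, adjusted p = 0.143). Cd44 followed (0.38 ± 0.12 SE, adjusted p = 0.150).

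With DSS in control 6 of 32 were higher and 5 lower, shares near those of all genes (15.0% and 13.5%), with a median of 0.18. Ly6a, which codes for Sca-1, rose to 925.3 ± 114.0 FPKM in WT_DSS, against 332.9 ± 28.2 FPKM in WT (1.47), and the EGF receptor ligand Areg rose (0.79), while the integrin subunit Itgb4 fell (-0.52). Ereg, another such ligand, averaged 2.54 ± 0.72 FPKM in WT_DSS and 0.502 ± 0.14 FPKM in WT. It is counted among the 6 higher, although it reached the filter only with the DSS libraries. In cKO 15 of 32 were higher, against 8.07% of all genes, and 1 lower, against 6.64%, with a median of 0.39. The 15 include Ly6d, Ereg and Tead4, which reached the filter only with the DSS libraries. Part of that count therefore follows from the filter. Besides Ly6d, at 12.3 ± 4.78 FPKM in cKO_DSS and 1.01 ± 0.59 FPKM in cKO, the smallest p belonged to Cldn4 (1.37), Areg (1.18) and Ly6a (1.28). Under the Y-linked covariate 4 were called higher and 3 lower in control, and 5 higher in cKO. That fit called 6.51% of all genes in control and 2.26% in cKO, against 28.5% and 14.7% as reported. Without WT 4 and WT_DSS 2, 5 were called in control (11% of all genes). Without cKO_DSS 3 and 4, 8 were called in cKO (13.5% of all genes). None of the 32 passed the interaction in limma, which called 0.151% of all genes. Of the 32, 11 had an unadjusted p under 0.05, a level for which no share of all genes was counted. By limma voom 1 was called, where 0.317% of all genes were. Without cKO_DSS 1 or 2 and without WT_DSS 3 the limma count was 5, 6 and 2. In these fits 2.96%, 9.35% and 0.943% of all genes were called. The smallest adjusted p were 0.0509 for Ly6d at 2.04, 0.0530 for the laminin subunit Lamb3 at 1.03, 0.0605 for Cldn4 at 1.12 and 0.0933 for the integrin subunit Itga3 at 0.60. For Ly6d, which passed the filter only through the DSS libraries, that p is a description and no test.

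Over the 16 libraries the genes whose pattern was most like the mean z-score of the 8 tested genes were Ffar4 (Pearson r = 0.958), Khnyn (0.945), Zfand2a (0.931), Pvr (0.930) and Bace2 (0.928), as a description over libraries that share the split into DSS and water. Ffar4, a receptor for long-chain fatty acids, averaged 32.7 ± 5.82 FPKM in cKO_DSS, 21.1 ± 6.60 FPKM in WT_DSS, 7.48 ± 1.02 FPKM in cKO and 7.15 ± 1.75 FPKM in WT.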

How the data were processed

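RNA sequencing of colonic epithelial cells gave 16 libraries, grouped by genotype and treatment from the labels. Per the labels' protocols, RNA was extracted with TRIzol and reads were dropped for adapters, N bases or poor quality. The submitters' processing notes list the mm10 build, DESeq2 1.20.0 and featureCounts 1.5.0-p3; for the aligner, the annotation release and the use of strand in counting, the sources here say nothing. The deposited values are FPKM per gene, with gene position and length as other deposited columns.

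FPKM multiplied by gene length gave whole reads (within 0.05, for 100.0% of the values checked), 13911823 to 16414914 per library. Kept were the 13255 of 56268 genes that reached 1 FPKM in 4 or more libraries. A mean per group was fitted to log2(FPKM + 1) of all 16 libraries with limma 3.58.1 (R 4.3.3; eBayes with a trend), and two-sided p were adjusted by Benjamini-Hochberg over all kept genes in each of 5 comparisons. The code was also run on simulated reads with the same spread setting for every gene. That run does not cover the spread seen in these libraries. The members and lists were chosen with earlier results of these data known. Named were the 9 genes, Rictor, listed partner genes, and, of the wider list, the 4 smallest p of each comparison; the 5 genes of most similar pattern were named by Pearson r. Alternatives were a pseudocount of 0.1, no filter, limma voom on recovered reads, a common median, a replicate block, a Y-linked covariate, a GC correction by loess (span 0.5; GC known for 97.1% of kept genes, GENCODE M21), the 8 samples compared, and leaving out libraries. Promoters came from RefSeq.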

Additional observations from a re-analysis of the deposited data

Results flagged for a closer look

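Clu in WT_DSS had 1 library far from the other 3: WT_DSS 4 stood at 2.98 FPKM, against 1.97, 1.80 and 1.81 FPKM in WT_DSS 1 to 3. It was the only one of 36 sets of 4 libraries (9 genes in 4 groups) that met this rule, which chance meets in about 1 of 20 sets.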

How the results depend on the processing

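Of 1069 estimates of single genes under alternatives, 1002 kept direction and side of the threshold, 36 lost a call, 13 gained one and 18 changed sign, none of these a call. Much of that agreement was fixed in advance. No filter, the replicate block, the 8 samples compared, and leaving out a library of a group not compared all returned the same estimate. For Il33 with a library left out, the exact test could not reach p under 0.05. The 1002 are thus no measure of stability. Counts of called members after DSS, 3 as reported, were 1 with no filter, 0 in the 8 samples compared, 0 without cKO_DSS 3 and 4, 0 without WT 4 and WT_DSS 2, and 0 to 3 with 1 library left out (0 without WT_DSS 2, 1 without WT_DSS 1, cKO_DSS 3 or cKO_DSS 4). With DSS in control, 4 became 1 under the Y-linked covariate, which called 6.51% of all genes there, and 4 to 5 with 1 library left out. In cKO leaving out 1 library gave 4 to 5, and for the interaction 0 to 1. The interaction call was Krt7 without cKO_DSS 2, where 9.35% of all genes were called. Estimates that changed sign were, with DSS in control, Clu at -0.10 under the Y-linked covariate; with DSS in cKO, S100a6 at -0.016 under that covariate and -0.27 without cKO_DSS 3 and 4; and in the interaction, Anxa1 at 0.020 and Anxa3 at 0.16 without cKO_DSS 3 and 4, and Anxa3 at 0.047 after the GC correction. With 1 library left out, ranges that crossed 0 were, on water, -0.090 to 0.17 for Clu and -0.072 to 0.17 for Msln; after DSS, -0.016 to 0.24 for Anxa1 and -0.54 to 0.094 for S100a6; -0.053 to 0.20 for Clu with DSS in control; -0.089 to 0.55 for S100a6 with DSS in cKO; and -0.16 to 0.043 for Anxa3 in the interaction. The causes were not tested. Over all genes, counts of calls ran from 2 to 111 on water (12 as reported), 33 to 886 after DSS (491), 863 to 4258 with DSS in control (3778), 299 to 2532 in cKO (1950) and 0 to 1240 for the interaction (20). Replicate numbers were shared between groups, and 6 of 24 same-numbered pairs deviated together at a correlation over 0.1. Pairs with different numbers were not compared, so whether the numbers pair samples was not tested. With a replicate block 0, 3, 5, 5 and 0 members were called on water, after DSS, with DSS in control, in cKO and in the interaction. That fit called 0.0151%, 3.24%, 29.1%, 14.3% and 0.0981% of all genes. The calls gained were Anxa3 in control (adjusted p = 0.0443) and Msln in cKO (adjusted p = 0.0174). Genes near 1 FPKM rest on few reads, which limits Plaur, Clu, Msln and Il33.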
